A study of Bos taurus with 17 samples.

Results

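Transcripts of the proteasome and its regulators were examined in cow cumulus cells, the somatic cells that surround the oocyte. The genes were taken from the array design without use of any measured value, as the non-control probes whose gene name starts with PSMA, PSMB, PSMC, PSMD, PSME or PSMG or whose description contains the word proteasome. This gave 49 of the 21475 probes of the array and 45 of its 19777 gene symbols. Cumulus cells came from 3 stages of oocyte competence. At the NC1 stage, the oocytes were immature, at prophase I, and the complexes came from 6 prepubertal calves aged 3 to 6 months. At the C1 stage, the oocytes were immature as well, but the compact complexes came from 6 adult cows of various ages. At the C2 stage, the oocytes were mature, at metaphase II, and the expanded complexes were collected by ovum pick up from ovulatory follicles of 5 Holstein cows aged 3 to 5 years, which had received progestagen implants, an FSH/LH preparation and prostaglandin. The design calls the follicles of NC1 early and those of C1 late, although the methods give 1 procedure for both, aspiration post mortem at a slaughterhouse. NC1 and C1 thus differ in the age of the donors, and C2 differs from both in hormone treatment, follicle size and way of collection, and these factors cannot be told apart from the stage. Each sample is 1 array. GEO's labels call the tissue ovarian follicles, whereas the design and the methods name cumulus cells.

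The proteasome is the protease that degrades proteins marked with ubiquitin chains. Its 20S core is a barrel of stacked rings, in which the outer rings of alpha subunits (PSMA genes) gate the entrance and the inner rings of beta subunits (PSMB genes) hold the active sites. The 19S particle caps the barrel, with a ring of ATPases (PSMC genes) that unfolds the substrate and non-ATPase subunits (most PSMD genes) that bind and remove ubiquitin. Other caps, the activators encoded by PSME genes, open the core without ATP. In cells exposed to interferon, the catalytic subunits PSMB8, PSMB9 and PSMB10 take the places of PSMB5, PSMB6 and PSMB7 and form the immunoproteasome, and PSME1 and PSME2 form its usual activator. In cumulus cells, proteasome activity is known to be needed for the expansion of the cumulus and for the resumption of meiosis in the oocyte.

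Signals are given as log2 of the spot signal minus the median of the array, so that a difference of 1 is a doubling of the signal. A level on this scale can be compared between arrays for the same probe but not between probes. A probe was valid when every stage had it present on 80% or more of its arrays, which held for 13865 probes. Of the 45 genes, 44 had a valid probe, PSMA8 being the exception. Of the 49 probes, PSMA7, PSMD12, PSME1 and PSME3 each had an additional one. A gene is represented by its valid probe with the highest mean signal. A gene is said to have risen or fallen only when its contrast in the limma fit of all valid probes had an adjusted p (Benjamini-Hochberg) under 0.01.

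The identity of the samples was checked on marker genes. Of 8 cumulus and granulosa genes with a valid probe, FSHR, AMH, CYP19A1, FST and FOXL2 fell from C1 to C2 and none rose. Of 5 genes of the expanded cumulus, HAS2, PTX3, TNFAIP6 and PTGS2 rose, whereas VCAN was lower in sign (-0.54, adjusted p = 0.342 in limma). Against NC1, HAS2 did not pass (adjusted p = 0.0186) and VCAN was lower in sign as well (-0.58). Signals of other cells differed between the stages as well. The summed log2 level of 12 oocyte genes ranged from 5.99 to 7.26 at NC1, from 2.45 to 5.87 at C1 and from 1.78 to 2.99 at C2, and 3 of them were valid, all of which fell from NC1 to C2. That of 12 theca and stroma genes ranged from 8.78 to 9.24 at C2, against 7.60 to 8.28 at NC1 and 7.63 to 8.26 at C1, and of its 9 valid genes COL1A1 and LUM rose from C1 to C2, while 5 were lower in sign, among them INSL3 of theca cells (-0.78, adjusted p = 0.0221). Of 6 valid endothelial genes, KDR rose and 4 were lower in sign, among them TEK (-0.78, adjusted p = 0.0101), which fell against NC1. HBA of red blood cells fell from C1 to C2. AHSP, the other valid gene of that list, did not pass in limma (-0.32, adjusted p = 0.093). HBB had no valid probe and had a higher mean at C2 (-2.76) than at C1 (-3.33) and NC1 (-3.41). The part of these cells in the proteasome values was not tested. The median signal per array was 64.2 to 208 in intensity units, and 66.2% to 82.8% of the probes were well above background.

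The sequences of 5 probes are shown because the results for the alpha ring and for the activators depend on which probe of a gene is read. The probes are 60 bases long and are written from 5′ to 3′. For the dimmer probe of PSMA7 and of PSME1, the first 30 bases are given.
PSMA7, brighter probe: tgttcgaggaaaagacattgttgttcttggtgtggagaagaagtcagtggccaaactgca
PSMA7, dimmer probe: tgggggcaccttgtgtggctaaccatacac
PSMA8 probe: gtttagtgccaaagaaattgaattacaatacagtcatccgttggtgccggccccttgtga
PSME1, brighter probe: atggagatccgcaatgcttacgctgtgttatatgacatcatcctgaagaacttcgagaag
PSME1, dimmer probe: ttccacacccactccctgaccatgcaggct
The brighter PSMA7 probe carried conflicting names in the array design, since its accession is that of PSMA7 while its description names PSMA8, the testis form of the same ring position. Over their full length, it shared no run of more than 6 bases with the dimmer PSMA7 probe, and none of more than 6 bases with the PSMA8 probe, on either strand. The 2 PSME1 probes carried the same accession and shared no run of more than 6 bases. The same held for the 2 probes of PSMD12 and for those of PSME3. These runs therefore do not show which transcript a probe detects.

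Among the 44 genes, 8 (18.2%) differed among the 3 stages by the moderated F test of limma, against 28.6% of all valid probes. In the comparison of C2 with C1, 9 genes (20.5%) passed the threshold, against 28.1% of all valid probes. PSMA3, PSMA7, PSMC6, PSMD6, PSMD8, PSME3 and PSME4 rose, and PSME1 and PSMF1 fell. The 7 that rose stand beside 15.3% of all valid probes, and the 2 that fell beside 12.8%. In comparison to NC1, 8 genes (18.2%) passed at C2, again against 28.1% of all valid probes. PSMA7, PSMC6, PSMD2, PSMD6, PSMD8, PSME3 and PSME4 rose and PSME1 fell, where 15.5% of all valid probes rose and 12.6% fell. The share of proteasome genes called was thus below that of the array as a whole in both comparisons. The gap is a few genes of 44 and was not tested. Against NC1, the share was not below that of all valid probes with normexp background correction (38.6% against 26.5%) or with array weights (34.1% against 29.1%). In bulk samples such as these, fewer cells of a type and less RNA per cell cannot be told apart. With PSMA7 read from its dimmer probe, the counts were 6 higher and 3 lower in the first comparison and 6 higher and 2 lower in the second.

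The arrays of C2 and C1 did not overlap for 5 of the 44 genes, against 21.6% of all valid probes, and those of C2 and NC1 for 3 genes, against 20.9%. The median change of the 44 genes was 0.23 from C1 to C2, where the median of all valid probes was 0.02, and 0.49 from NC1 to C2, where the median of all valid probes was 0.11. In sign alone, 34 genes were higher and 10 lower at C2 than at C1, and 39 were higher and 5 lower than at NC1. These splits depended on the scaling of the arrays. After quantile normalisation, the split was 26 higher to 18 lower against C1 and 32 to 12 against NC1. The genes past the threshold were then 7 higher and 6 lower against C1, and 6 higher and 3 lower against NC1. The share of the 44 genes called was then 29.5% and 20.5%, beside 33.7% and 33.2% of all valid probes. Scaling to the 75th percentile of each array moved the median of all valid probes to -0.11 for C2 minus C1 and to -0.04 for C2 minus NC1, and gave 7 higher and 6 lower genes past the threshold against C1. This was 29.5% of the genes, beside 33.4% of all valid probes. Of all valid probes, 2464 fell against C1 after quantile normalisation and 2514 with the 75th percentile, in place of 1775 as reported. The median of the 44 genes exceeded that of all valid probes by 0.21 for C2 minus C1 and by 0.38 for C2 minus NC1. Scaling to the median and to the 75th percentile give the same excess by construction, since each subtracts 1 constant per array. The excess was 0.11 and 0.24 after quantile normalisation, and 0.12 and 0.55 with normexp background correction.

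**Figure D1:**
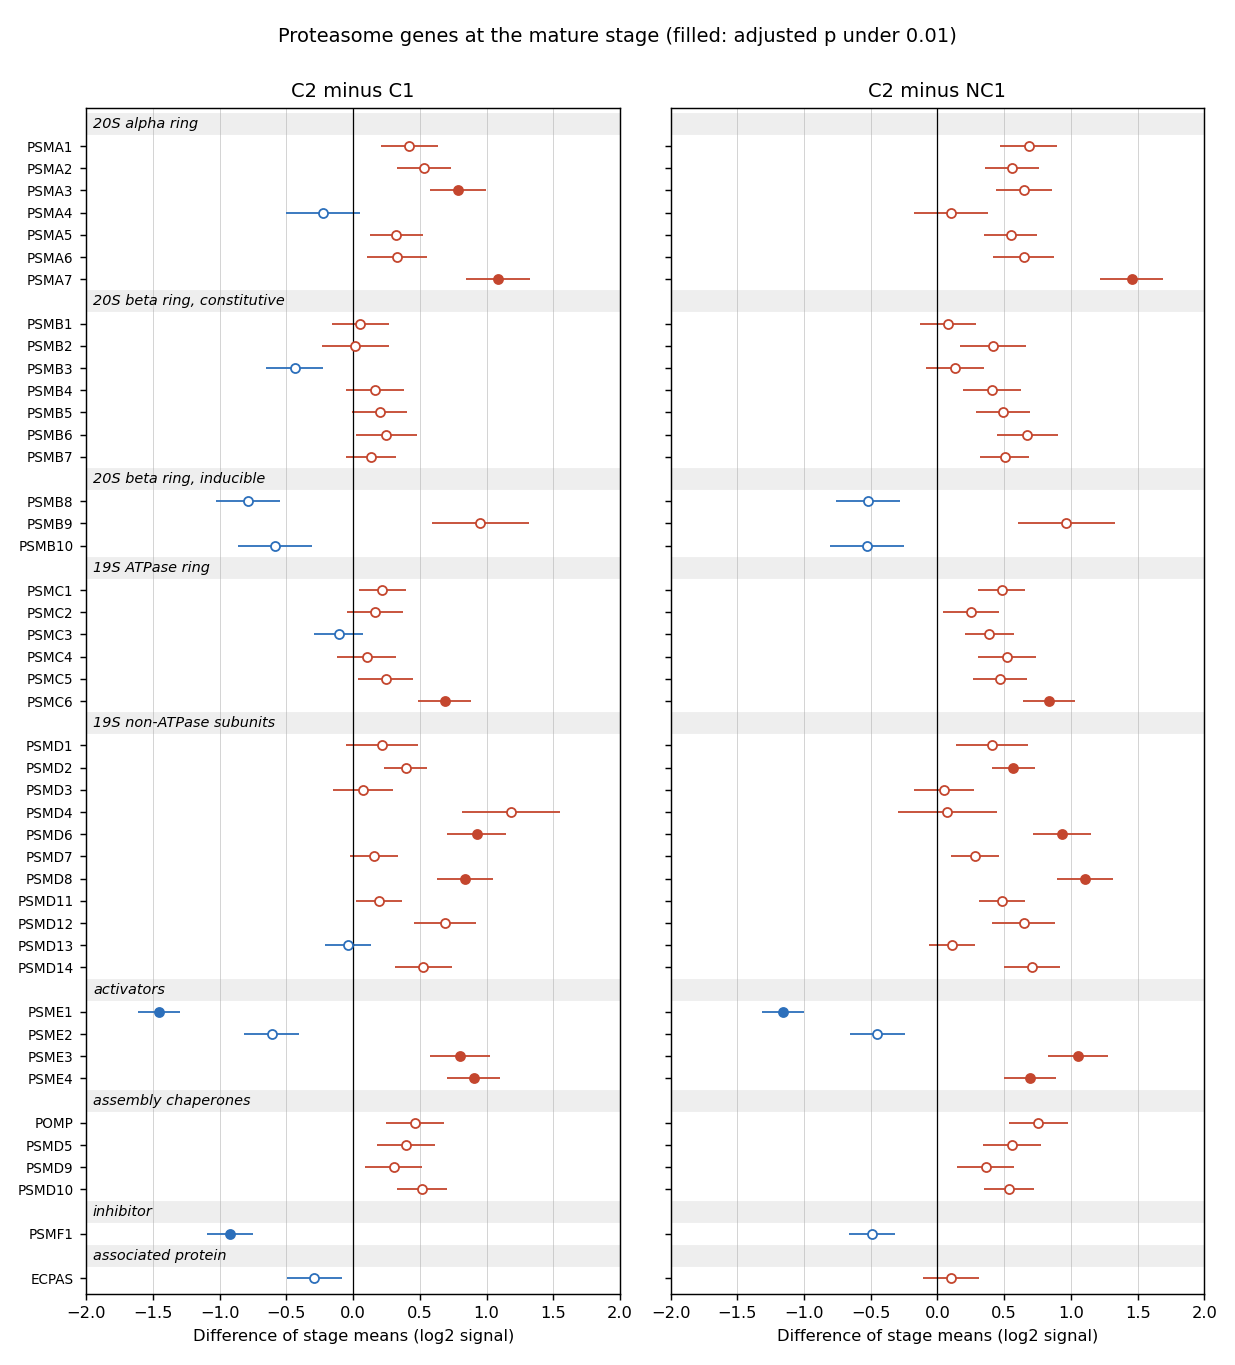
Difference of stage means with its standard error for the 44 proteasome genes with a valid probe, on the log2 scale, C2 minus C1 on the left and C2 minus NC1 on the right. Filled points had an adjusted p under 0.01. Most subunits of the core and of the 19S particle lie between 0 and 1, whereas PSME1, PSME2, PSMF1, PSMB8 and PSMB10 lie below 0 in both panels.

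No proteasome gene passed the threshold between C1 and NC1 in limma, where 0.0577% of all valid probes did. At an unadjusted p under 0.05, there were 4 such genes of 44 in limma and 9 in the exact permutation test, beside 9.84% and 15.4% of all valid probes. PSMC3, an ATPase of the 19S base, had 6.27 ± 0.15 at C1 and 5.78 ± 0.22 at NC1 (SD, n = 6 each), a difference of 0.50 ± 0.17 (SE) with an adjusted p of 0.293 in limma. PSMD4, a ubiquitin receptor of the 19S particle, went the other way, by -1.11 ± 0.35 (adjusted p = 0.21). The median of the 44 genes was 0.23 higher at C1 than at NC1, against 0.05 for all valid probes.

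In the 20S alpha ring, 6 of 7 genes were higher at C2 than at C1 and 7 of 7 were higher than at NC1, with medians of 0.42 and 0.64. Of these, PSMA3 and PSMA7 rose against C1 and PSMA7 rose against NC1. These counts read PSMA7 from its brighter probe. With the dimmer probe, 5 of 7 and 6 of 7 genes were higher, with medians of 0.33 and 0.56, PSMA3 alone rose against C1, none rose against NC1 and PSMA7 fell in both. The PSMA3 signal ranged from 4.07 to 4.74 at C1 with a median of 4.26, and from 4.17 to 4.92 at NC1 with a median of 4.30. At C2, it was 4.95, 4.58, 4.90, 5.68 and 5.35. All but 1 of the C2 arrays lay above every C1 array. The difference was 0.79 ± 0.21 (SE) against C1, with an adjusted p of 0.00579 in limma, and 0.65 ± 0.21 against NC1 (adjusted p = 0.0187). The call against C1 was lost in 6 of the 17 fits that left out 1 array. PSMA4 was the 1 gene of the ring below C1, with a difference of -0.23 ± 0.28 (adjusted p = 0.537).

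The 2 valid probes of PSMA7, which encodes the alpha subunit at the position that PSMA8 takes in testis, moved in opposite directions. The brighter probe ranged from 3.46 to 4.30 at NC1 with a median of 3.72 and from 3.63 to 4.60 at C1 with a median of 4.20. At C2, the arrays read 4.94, 5.22, 5.63, 5.85 and 4.60. Each C2 array was above every array of the other stages. The rise was 1.08 ± 0.24 against C1 and 1.45 ± 0.24 against NC1 (SE, adjusted p = 0.00128 and 8.77e-05 in limma). The rise against C1 was 0.74 within the first scan day and 1.59 within the second.

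The dimmer PSMA7 probe ranged from 2.59 to 2.94 at NC1 with a median of 2.81 and from 2.16 to 3.40 at C1 with a median of 2.96. Its C2 arrays had 2.05, 1.76, 2.07, 1.45 and 1.73, all below every array of the other stages. The fall was -1.09 ± 0.19 against C1 and -0.99 ± 0.19 against NC1 (SE, adjusted p = 0.000212 and 0.000518). For both probes and both comparisons, p was 0.00433 in the exact permutation test, which can give no smaller value with 5 and 6 arrays. With the 2 probes averaged, C2 minus C1 was -0.0011 for PSMA7. Since the probes disagree and 1 of them also carries the name PSMA8, a direction for PSMA7 itself cannot be given from this array.

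The PSMA8 probe was dim. It was well above background and uniform on 3 of 6 NC1 arrays, 6 of 6 C1 arrays and 4 of 5 C2 arrays, and it therefore entered no test. Its signal ranged from -3.76 to -2.60 at NC1 with a median of -3.16 and from -3.07 to -1.91 at C1 with a median of -2.52. On the C2 arrays, it was -3.04, -2.94, -3.27, -2.27 and -3.49, and the stages overlapped.

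**Figure D2:**
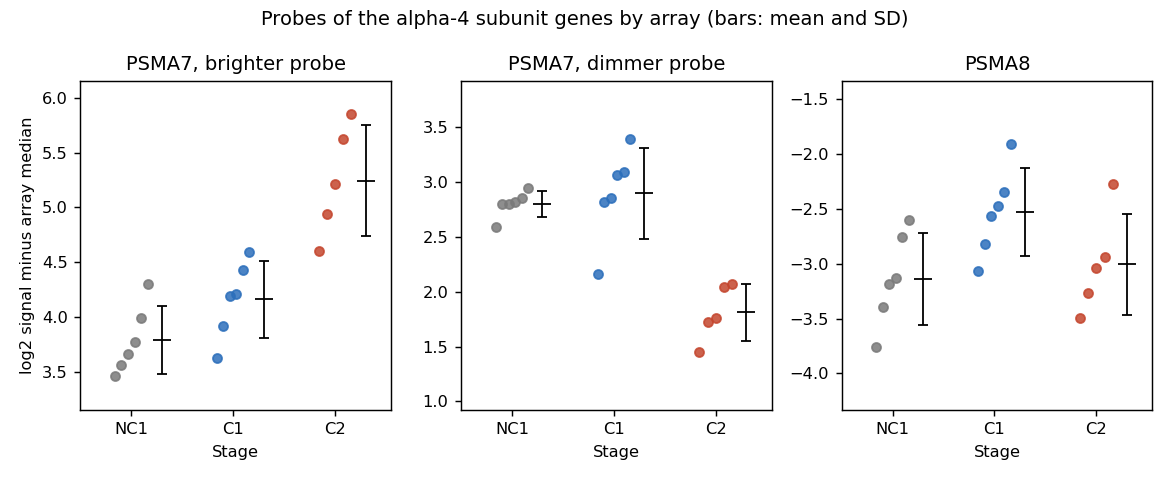
Log2 signal minus the array median of the 2 PSMA7 probes and of the PSMA8 probe on each of the 17 arrays by stage, with the points of a stage sorted by value and its mean and SD as bars. The brighter PSMA7 probe is highest at C2, the dimmer one is lowest at C2, and the 3 stages of the PSMA8 probe overlap.

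In the constitutive 20S beta ring, no gene passed the threshold in limma in either comparison. At an unadjusted p under 0.05, limma gave 0 of 7 genes against C1 and 3 of 7 against NC1, beside 49.0% and 48.5% of all valid probes. The exact permutation test gave 0 and 3, beside 43.3% and 42.2%. The median differences were 0.14 against C1 and 0.42 against NC1. PSMB6, the constitutive subunit with caspase-like activity, was the furthest from NC1 of the 7, with 7.25, 6.64, 7.29, 7.98 and 7.37 at C2. It ranged from 6.67 to 7.42 at C1 with a median of 7.03 and from 6.20 to 7.10 at NC1 with a median of 6.61, so that 4 C2 arrays lay above every NC1 array. PSMB6 differed by 0.67 ± 0.23 from NC1 (SE, adjusted p = 0.0256). PSMB5, the chymotrypsin-like subunit, had 7.95, 7.41, 8.02, 8.50 and 7.93 at C2, with ranges of 7.49 to 8.23 at C1 (median 7.75) and 7.17 to 7.96 at NC1 (median 7.37). PSMB7, the trypsin-like subunit, had 8.57, 8.01, 8.37, 8.95 and 8.47 at C2, with ranges of 7.98 to 8.67 at C1 (median 8.36) and 7.69 to 8.33 at NC1 (median 7.91). Both overlapped between C2 and C1. PSMB3, a structural beta subunit, was the furthest from C1, with 6.87, 5.99, 6.79, 7.01 and 7.13 at C2. Its range was 6.88 to 7.57 at C1 with a median of 7.21 and 6.33 to 7.13 at NC1 with a median of 6.62. C1 was its highest stage, and the difference of -0.44 ± 0.21 between C2 and C1 had an adjusted p of 0.112 for PSMB3.

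The inducible beta subunits did not move together. None of the 3 passed the threshold in limma, although all 3 had an unadjusted p under 0.05 against C1 and 2 of 3 against NC1. Of all valid probes, 49.0% and 48.5% did. PSMB8, the inducible counterpart of the chymotrypsin-like PSMB5, ranged from 2.60 to 3.49 at C1 with a median of 2.97 and from 2.39 to 3.21 at NC1 with a median of 2.70. At C2, its values were 2.91, 1.68, 1.90, 1.95 and 2.58, and 4 of them lay below every C1 array. The difference was -0.79 ± 0.24 against C1 (adjusted p = 0.0126) and -0.52 ± 0.24 against NC1 (adjusted p = 0.0879).

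PSMB10, the counterpart of the trypsin-like PSMB7, had 6.50, 5.45, 6.24, 6.77 and 6.96 at C2. Its signal ranged from 6.41 to 7.36 at C1 with a median of 7.08 and from 6.50 to 7.63 at NC1 with a median of 6.91. The stages overlapped, and the differences of -0.59 ± 0.28 and -0.53 ± 0.28 had adjusted p-values of 0.0991 and 0.139. The scaling decided these calls. PSMB8 and PSMB10 both fell against C1 with scaling to the 75th percentile (-0.92 and -0.72, adjusted p = 0.00159 and 0.00816) and after quantile normalisation (-0.86 and -0.79, adjusted p = 0.00262 and 0.00353), and after quantile normalisation PSMB10 also fell against NC1 (-0.80, adjusted p = 0.0031).

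PSMB9, the counterpart of PSMB6, was higher on most C2 arrays. Its C2 arrays had 5.19, 3.82, 6.15, 6.39 and 5.38, against a range of 3.83 to 4.83 at C1 with a median of 4.47 and of 3.85 to 5.19 at NC1 with a median of 4.44. Thus 4 C2 arrays lay above every C1 array and 1 lay below every C1 array, which gave PSMB9 a wide spread at C2 (SD 1.01). The difference was 0.95 ± 0.36 against C1 (adjusted p = 0.0414) and 0.97 ± 0.36 against NC1 (adjusted p = 0.0396). Without C2 replicate 2, PSMB9 passed in both, with 1.35 and 1.36 (adjusted p = 0.00094 and 0.000912). With all arrays, C2 minus C1 was 0.19 within the first scan day and 2.01 within the second for PSMB9. In the current cow annotation (ARS-UCD2.0), PSMB8 and PSMB9 are separated by 1 protein-coding gene, TAP1, a peptide transporter subunit.

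Because an inducible subunit is incorporated in place of its constitutive counterpart, the difference of their log2 signals was taken within each array, where the scaling to the array median cancels. Its level has no meaning between probes, only its change. For PSMB8 minus PSMB5, the mean was -5.76 ± 0.60 at C2 (SD, n = 5), -4.77 ± 0.34 at C1 and -4.75 ± 0.26 at NC1 (n = 6 each). Between the immature stages, its change was -0.03 ± 0.18 (SE). The change was -0.99 ± 0.30 from C1 to C2 (exact permutation p = 0.013, adjusted p = 0.039 over 9 tests) and -1.01 ± 0.29 from NC1 to C2 (exact permutation p = 0.00866, adjusted p = 0.039). It was lower at C2 on 4 of 5 slides against the C1 array of the slide and on 5 of 5 against the NC1 array.

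For PSMB10 minus PSMB7, the mean was -2.09 ± 0.38 at C2, -1.37 ± 0.27 at C1 and -1.06 ± 0.31 at NC1. The change was -0.72 ± 0.20 from C1 to C2 (exact permutation p = 0.0173, adjusted p = 0.039) and -1.03 ± 0.21 from NC1 to C2 (exact permutation p = 0.00433, adjusted p = 0.039), and it was lower at C2 on 5 of 5 slides in both. For PSMB9 minus PSMB6, the change from C1 to C2 was 0.71 ± 0.30 and missed the threshold of 0.05 (exact permutation p = 0.0433, adjusted p = 0.0779), and that from NC1 to C2 was 0.29 ± 0.31 (exact permutation p = 0.372, adjusted p = 0.419). Leaving out an array limits the exact test, which then allows fewer regroupings and cannot reach as small a p-value. A lost call therefore does not by itself show that a result rests on the array left out. From C1 to C2, PSMB8 minus PSMB5 stayed between -1.17 and -0.79 and PSMB10 minus PSMB7 between -0.87 and -0.61. When 1 array was left out at a time, the call from C1 to C2 was lost in 7 of 11 tests for PSMB8 minus PSMB5, as without C2 replicate 4 (-0.79, exact permutation test, adjusted p = 0.0857), and in 9 of 11 tests for PSMB10 minus PSMB7, as without C2 replicate 2 (-0.61, exact permutation test, adjusted p = 0.0686), and the calls from NC1 to C2 were lost in 4 and 2 of 11 tests.

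**Figure D3:**
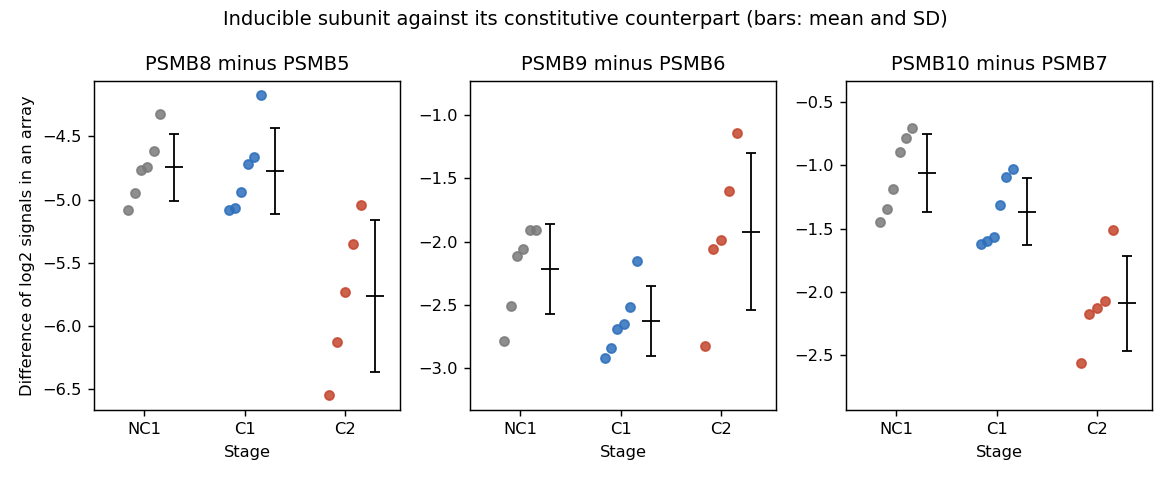
Difference of the log2 signals of an inducible subunit and its constitutive counterpart within each of the 17 arrays by stage, with the points of a stage sorted by value and its mean and SD as bars. PSMB8 minus PSMB5 and PSMB10 minus PSMB7 are lowest at C2, whereas 4 of 5 C2 arrays of PSMB9 minus PSMB6 lie above every C1 array.

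Genes of leukocytes, which use the inducible subunits constitutively, were examined beside these values. Of 20 leukocyte markers, 12 had a valid probe. CD14, CD53, LAPTM5, TYROBP and LCP1 rose from C1 to C2 and none fell, and from NC1 to C2 PTPRC and TYROBP rose. In sign, 9 of the 12 were higher and 3 lower at C2 in both comparisons. Against C1, the lower ones were ITGB2 (-0.32), CD2 (-0.19) and CD79A (-0.18). The summed level of the list ranged from 4.76 to 5.64 at C1, from 4.94 to 5.82 at NC1 and from 4.83 to 6.54 at C2. Among markers without a valid probe, CD3E of T cells was well above background on 4 of 5 C2 arrays and on 0 of 12 immature arrays, CORO1A was so on 5 of 5 and 5 of 12, and CD74 on 4 of 5 and 4 of 12. CD3D of T cells was so on 1 of 5 C2 arrays and CD79B of B cells on 0 of 5. FCER1G was well above background on 4 of 6 NC1, 6 of 6 C1 and 4 of 5 C2 arrays. For MS4A1, these were 1 of 6, 4 of 6 and 3 of 5, and for ITGAM 0 of 6, 0 of 6 and 1 of 5. The part of these cells in the changes of the inducible subunits was not tested.

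In the ATPase ring of the 19S particle, all 6 genes were higher at C2 than at NC1 and 5 of 6 were higher than at C1, with medians of 0.47 and 0.19. Only PSMC6 passed the threshold among the 6. PSMC6 ranged from 3.50 to 4.16 at C1 with a median of 3.85 and from 3.45 to 4.12 at NC1 with a median of 3.62. The values at C2 were 4.24, 4.28, 4.84, 5.09 and 4.32, each above every array of the immature stages. The rise was 0.68 ± 0.20 against C1 (adjusted p = 0.00985) and 0.83 ± 0.20 against NC1 (adjusted p = 0.00252). The call against C1 lies at the threshold and was lost in 13 of the 17 fits that left out 1 array, in which the difference lay between 0.55 and 0.76.

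Among the 11 non-ATPase subunits of the 19S particle, 10 were higher at C2 than at C1 and 11 were higher than at NC1, with medians of 0.39 and 0.48. PSMD6 and PSMD8 rose against both immature stages. PSMD8, a subunit of the 19S lid, had 7.30, 6.35, 7.11, 7.41 and 7.44 at C2. It ranged from 6.00 to 6.75 at C1 with a median of 6.25 and from 5.78 to 6.44 at NC1 with a median of 5.89. All C2 arrays but replicate 2 lay above every immature array. The rise was 0.83 ± 0.21 against C1 (adjusted p = 0.00381) and 1.11 ± 0.21 against NC1 (adjusted p = 0.00038). The call against C1 was lost in 4 of the 17 fits that left out 1 array.

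PSMD6, another lid subunit, had 7.28, 7.70, 8.05, 8.40 and 7.34 at C2. It ranged from 6.57 to 7.30 at C1 with a median of 6.76 and from 6.53 to 7.29 at NC1 with a median of 6.71. The 2 immature stages were close, differing by 0.01 ± 0.21, and 4 of 5 C2 arrays lay above every C1 array. The rise was 0.92 ± 0.22 against C1 (adjusted p = 0.00265) and 0.93 ± 0.22 against NC1 (adjusted p = 0.0025). It was 0.57 within the first scan day and 1.43 within the second for C2 minus C1.

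PSMD2, a large scaffold subunit of the 19S base, had 8.78, 8.27, 8.05, 8.44 and 8.86 at C2 and ranged from 7.75 to 8.11 at NC1 with a median of 7.90. It rose against NC1 alone, by 0.57 ± 0.16 (adjusted p = 0.00904), with a difference of 0.39 ± 0.16 against C1 (adjusted p = 0.0595). Its call against NC1 was lost in 13 of the 17 fits that left out 1 array. The call was also lost in limma with scaling to the 75th percentile (0.42, adjusted p = 0.0279) and after quantile normalisation (0.28, adjusted p = 0.143). PSMD12, a lid subunit, had 2 valid probes that pointed the same way without passing, with differences from C1 of 0.69 ± 0.23 and 0.83 ± 0.24 (adjusted p = 0.0252 and 0.0108). PSMD14, the deubiquitinase of the lid, had differences of 0.53 ± 0.21 from C1 and 0.71 ± 0.21 from NC1 (adjusted p = 0.0536 and 0.0118).

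PSMD4 had the widest difference of the group against C1 and followed another course. It ranged from 4.96 to 7.15 at C1 with a median of 5.48 and from 5.79 to 7.67 at NC1 with a median of 7.03. At C2, PSMD4 had 7.47, 6.61, 6.79, 6.41 and 7.16. C1 was therefore the low stage, and C2 overlapped with NC1. The difference of C2 from C1 was 1.18 ± 0.37 (adjusted p = 0.0157) and that from NC1 was 0.07 ± 0.37 (adjusted p = 0.897).

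The activators were split in direction. PSME1, which forms the activator of the immunoproteasome together with PSME2, fell. PSME3, which forms the nuclear ring of the same family, and PSME4, a large single-chain activator of nuclei and testis, rose. Thus 3 of 4 genes passed in each comparison, where 28.1% of all valid probes did, though 4 genes are too few to be read against that share.

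PSME1 ranged from 7.01 to 7.38 at C1 with a median of 7.11 and from 6.52 to 7.29 at NC1 with a median of 6.81. At C2, it had 5.66, 5.74, 5.39, 5.91 and 5.77. Every C2 array lay below every immature array. The fall was -1.46 ± 0.16 against C1 and -1.16 ± 0.16 against NC1 (SE, adjusted p = 1.04e-06 and 1.36e-05 in limma, exact permutation p = 0.00433 in both), a signal 2.74-fold and 2.23-fold higher at C1 and NC1 than at C2. Within the first and the second scan day, the fall against C1 was -1.42 and -1.50. The dimmer PSME1 probe had 0.56 on 1 C2 array and -0.21, -0.89, -1.91 and -1.98 on the others, and its differences of -0.61 ± 0.46 and -0.53 ± 0.46 did not pass (adjusted p = 0.30 and 0.378).

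PSME2 ranged from 6.75 to 7.64 at C1 with a median of 7.13 and from 6.68 to 7.45 at NC1 with a median of 6.93. Its C2 values were 6.50, 6.29, 6.48, 6.89 and 6.68, and 4 of them lay below every C1 array. The difference of -0.61 ± 0.21 against C1 had an adjusted p of 0.0238 in limma and that of -0.45 ± 0.21 against NC1 one of 0.0888. PSME2 passed in both comparisons with scaling to the 75th percentile (-0.74 and -0.60, adjusted p = 0.000162 and 0.00104) and after quantile normalisation (-0.81 and -0.71, adjusted p = 5.63e-05 and 0.000206). In the cow annotation, 1 protein-coding gene, EMC9, lies between PSME1 and PSME2.

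PSME3 had 6.03, 5.00, 5.92, 6.38 and 6.36 at C2, and ranged from 4.75 to 5.53 at C1 with a median of 5.06 and from 4.70 to 5.28 at NC1 with a median of 4.82. All C2 arrays but replicate 2 lay above every immature array. The rise was 0.80 ± 0.23 against C1 (adjusted p = 0.00889) and 1.05 ± 0.23 against NC1 (adjusted p = 0.0012). Its dimmer probe had differences of 0.56 ± 0.22 and 0.74 ± 0.22 (adjusted p = 0.0517 and 0.0119). The call of the brighter probe against C1 was lost in 13 of the 17 fits that left out 1 array, where the difference lay between 0.69 and 1.03.

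PSME4 had 5.54, 6.06, 6.19, 5.93 and 5.48 at C2, and ranged from 4.43 to 5.26 at C1 with a median of 4.98 and from 4.74 to 5.59 at NC1 with a median of 5.12. Every C2 array lay above every C1 array, and 3 of 5 lay above every NC1 array. The rise was 0.90 ± 0.20 against C1 (adjusted p = 0.00128) and 0.69 ± 0.20 against NC1 (adjusted p = 0.00892). The latter call was lost in 12 of the 17 fits that left out 1 array. It was also lost in limma with scaling to the 75th percentile (0.55, adjusted p = 0.0116) and after quantile normalisation (0.48, adjusted p = 0.0284).

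PSMF1, a protein that inhibits the core and its activation by the 19S particle and by PSME caps in vitro, fell against C1. It ranged from 2.76 to 2.97 at C1 with a median of 2.81 and from 2.10 to 2.87 at NC1 with a median of 2.37. The C2 arrays had 1.71, 2.31, 1.59, 2.20 and 1.74, all below every C1 array. The fall was -0.92 ± 0.17 (adjusted p = 0.000336), and it was -0.91 and -0.93 within the 2 scan days. Against NC1, the difference was -0.49 ± 0.17 (adjusted p = 0.0295), and C1 was 0.43 ± 0.16 above NC1 (adjusted p = 0.355). ECPAS, an adaptor of the proteasome, had 3.57, 4.33, 3.74, 3.39 and 3.57 at C2, within its range over the immature arrays. It did not pass, with -0.29 ± 0.21 against C1 and 0.10 ± 0.21 against NC1 (adjusted p = 0.286 and 0.733).

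**Figure D4:**
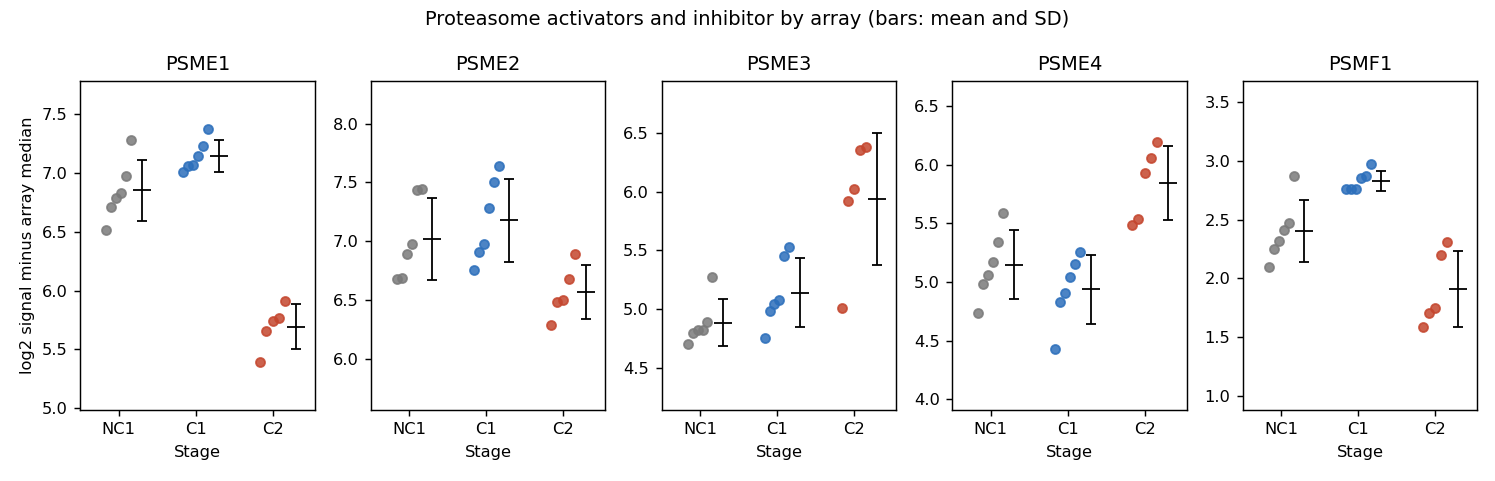
Log2 signal minus the array median of the 4 activator genes and of PSMF1 on each of the 17 arrays by stage, with the points of a stage sorted by value and its mean and SD as bars. The vertical axes cover the same length and differ in position. PSME1 at C2 lies between 5.39 and 5.91, below every other array, and PSME4 at C2 lies above every C1 array.

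The chaperones that assist the assembly of the core and of the 19S base (POMP, PSMD5, PSMD9 and PSMD10) were all higher at C2 in sign, with medians of 0.43 against C1 and 0.55 against NC1, but 0 of 4 passed in limma. At an unadjusted p under 0.05, limma gave 2 against C1 and 3 against NC1, where 49.0% and 48.5% of all valid probes had one. The exact permutation test gave 1 and 3, beside 43.3% and 42.2%. POMP, which matures the beta ring, had 8.46, 7.83, 8.73, 9.36 and 8.46 at C2 and ranged from 7.57 to 8.16 at NC1 with a median of 7.81. Its difference of 0.76 ± 0.22 had an adjusted p of 0.0101. PSMD10 had 5.17, 5.27, 5.34, 5.72 and 5.39 at C2 and ranged from 4.54 to 5.20 at C1 with a median of 4.85. Its difference of 0.52 ± 0.19 had an adjusted p of 0.036.

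Some genes of the complex stood on the array under older names and so outside the rule. Among them, PSMG2, a chaperone of the alpha ring, rose by 0.82 against C1 and by 0.96 against NC1 (adjusted p = 0.00564 and 0.00174). PSMG3 rose by 0.92 against NC1 (adjusted p = 0.000531) with 0.43 against C1 (adjusted p = 0.063). PSMG1, the partner of PSMG2, had 0.03 and -0.05 (adjusted p = 0.921 and 0.882). The 19S subunits ADRM1 and SEM1 had no valid probe.

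The level of the core and 19S subunits also differed between the arrays of a stage. For the 31 constitutive genes of both particles, the median deviation from the mean of each gene over the 17 arrays was taken on each array. On the C2 arrays, it was 0.31, -0.24, 0.27, 0.76 and 0.33, while it ranged from -0.24 to 0.38 at C1 and from -0.45 to 0.15 at NC1. C2 replicate 2 was thus at the level of the lowest C1 arrays, and C2 replicate 4 was above all arrays. These 2 arrays had similar shares of probes well above background, 74.0% and 73.8%. The cause of the difference between them was not tested. The median SD of the 44 genes was 0.43 at C2, against 0.28 at C1 and 0.29 at NC1. Over all valid probes, it was 0.50, 0.33 and 0.34. Without C2 replicate 2, 16 proteasome genes rose from NC1 to C2 in place of 7, and without C2 replicate 4, 3 rose from C1 to C2 in place of 7. The shares of all valid probes in these fits are not given here, so the counts cannot be read as particular to proteasome genes. PSME1 fell in both comparisons and PSMF1 against C1 whichever array was left out.

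**Figure D5:**
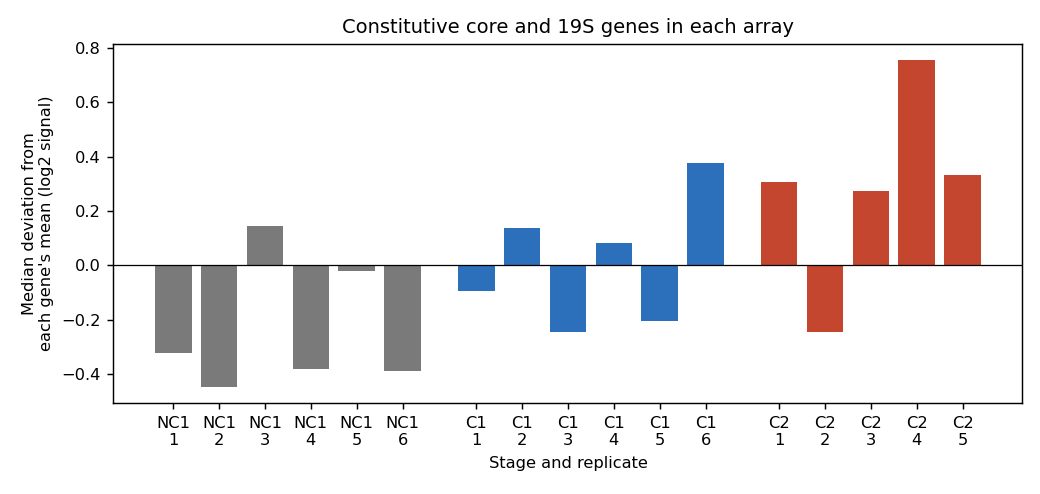
Median deviation of the 31 constitutive 20S and 19S genes from the mean of each gene over the 17 arrays, in log2 signal, for each array by stage and replicate. C2 replicate 4 is highest at 0.76, C2 replicate 2 lies at -0.24, and 5 of 6 NC1 arrays lie below 0.

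Upstream of the proteasome, the enzymes that activate and conjugate ubiquitin were examined. Of 31 such genes with a valid probe, 11 rose and 2 fell from C1 to C2, and 9 rose and 2 fell from NC1 to C2. Of all valid probes, as given above, 15.3% rose and 12.8% fell in the first comparison and 15.5% and 12.6% in the second, and these shares also stand beside the counts of the shorter lists that follow. UBA1, the main ubiquitin-activating enzyme, rose by 1.11 and 1.05 (adjusted p = 1.50e-05 and 2.89e-05). UBE2H, a conjugating enzyme, rose by 1.59 and 1.38 (adjusted p = 0.000686 and 0.00223). UBE2E2 fell by 1.12 on the log2 scale against C1. UBE2L6, which conjugates the interferon-induced modifier ISG15, fell by 1.37 and 0.99 (adjusted p = 0.000376 and 0.00521).

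Of 9 deubiquitinases and shuttle factors, UBQLN1 rose and UBQLN4 fell against C1, and only UBQLN4 fell against NC1. USP14 and UCHL5, the deubiquitinases that dock on the 19S particle, had 0.29 and -0.10 against C1 (adjusted p = 0.194 and 0.769). Of 12 genes of the p97 system, which extracts ubiquitinated proteins from membranes and complexes, DERL1 rose and FAF1 fell in both comparisons. VCP, the p97 ATPase, had 0.13 against C1 (adjusted p = 0.647). Of 3 ubiquitin precursor genes, UBB rose against NC1 by 1.03 (adjusted p = 0.00956), and none passed against C1.

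Among 9 transcription factors known to act on proteasome genes, IRF1, an interferon response factor that drives the inducible subunits, was the one that passed. It fell by 1.87 on the log2 scale against C1 and by 2.05 against NC1 (adjusted p = 0.000864 and 0.000398). NFE2L1, the factor that restores proteasome transcripts after inhibition, had -0.92 against C1 (adjusted p = 0.0448). In the class I antigen pathway, which takes its peptides from the proteasome, TAP1, CANX and PDIA3 rose against C1 and TAPBP and ERAP1 fell, out of 8 genes. TAP1 rose by 1.03 (adjusted p = 0.00425) while TAP2, its partner, had -0.79 (adjusted p = 0.0144). Against NC1, CANX rose and TAP2 fell by 0.92 on the log2 scale (adjusted p = 0.00529).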

How the data were processed

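Cumulus cell RNA, carrying the Cy3 dye, was measured on 1-colour Agilent arrays for the cow, 6 at NC1, 6 at C1 and 5 at C2, on 6 slides scanned on 2 days. The authors deposited linear intensity values of each spot from Feature Extraction 10.5.1.1 (named in the submitters' processing notes), after subtraction of the background and detrending. A second file deposited by the authors holds log2 values, scaled by the median of each array, and was used as an alternative. Of its values, 99.9% differed by under 0.01 from those computed here, after centring.

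From the spots, log2 of the processed intensity was averaged per probe, without non-uniform and outlier spots, and the median of the array was subtracted. Presence on an array required 50% or more of a probe's spots to be well above background, uniform and not saturated. Valid probes had presence on 80% or more of the arrays in all 3 stages. Stages were compared in 1 limma fit (version 3.58.1, statmod 1.5.0, R 4.3.3; lmFit and eBayes), with adjustment over all valid probes. The exact permutation tests were 2-sided and enumerated all regroupings (Python 3.11.15, numpy 2.4.6, pandas 2.3.3); with C2 (5 and 6 arrays) they can reach 0.00433, and between NC1 and C1 0.00216. The fit and the permutation test were tested on simulated data. Figures were drawn with matplotlib 3.10.9.

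Symbols came from RefSeq (ARS-UCD2.0), for the 49 probes through the accession (31), the gene number in the name (14) or the symbol in the description (4). Coordinates are left out because no build is named in the files. The probe sequences are those of the deposited table. Values on each array were given for the inducible subunits, for the gene of each subcomplex furthest from C1 and from NC1, and for genes whose probes disagree. The other genes past the threshold, PSME2 and PSMD12 were added after their values were seen. Counterparts PSMB5 to PSMB7 were given by stage or within pairs. The members and the lists were chosen with earlier results of these data known. Promoter motifs were not searched. Columns of per-sample values left unused numbered 0. Alternatives were other scalings, background correction, filters, blocks, array weights, the mean of probes and leaving out each array. The number of arrays limits the precision.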

Additional observations from a re-analysis of the deposited data

Results flagged for a closer look

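Of 75 groups of 5 or 6 arrays examined for a value apart from the others, 2 had one, fewer than the about 1 in 20 that chance gives. PSMD4 on C1 replicate 4 had a log2 signal of 7.15, where the next highest C1 array had 5.78. PSME3 on NC1 replicate 3 had 5.28, where the next highest NC1 array had 4.89.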

How the results depend on the processing

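The number of proteasome genes differing among the stages, 8 as reported, was 13 with scaling to the 75th percentile, 13 after quantile normalisation and 16 with array weights, and 5 to 14 when single arrays were left out (14 without C2 replicate 2 and 5 without C2 replicate 4). The number higher at C2 than at C1, 7 as reported, was 2 with normexp background correction, 4 with the slide as a fixed block and 3 with only the 2 stages compared in the fit, and 3 to 10 when single arrays were left out. It fell to 3 or 4 without C1 replicate 1, 3 or 5 and without C2 replicate 4 or 5. The number lower than at C1, 2 as reported, was 6 with scaling to the 75th percentile and 6 after quantile normalisation. The number higher than at NC1, 7 as reported, was 16 with normexp, 14 with array weights and 4 with only the 2 stages compared, and 5 to 16 when single arrays were left out (16 without C2 replicate 2). The number lower than at NC1, 1 as reported, was 2 with the 75th percentile, 3 after quantile normalisation, 0 with the mean over the probes of a gene and 2 with PSMA7 read from its second probe, a setting chosen after seeing the data. The replicate numbers do not pair the samples, since the stages came from different animals and samples of the same number correlated between -0.32 and 0.25 in their deviations from the stage means, and 1 of 17 arrays was most like an array of its own number. With the replicate block, the counts were 3 higher and 2 lower against C1, and 5 and 1 against NC1, where 23.1% and 22.3% of all valid probes passed. Calls over all valid probes moved with the settings as well, from 28.1% against C1 as reported to 23.6% with normexp and 33.4% with the 75th percentile. For the F test in other settings and for the fits that left out 1 array, such shares are not given here. PSMD6, PSME1, PSME4 and PSMF1 against C1, and PSMD6, PSMD8 and PSME3 against NC1, kept direction and call in 13 of 13 other settings and in 17 of 17 fits that left out 1 array.

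PSMB8 minus PSMB5 changed by -0.85 from C1 to C2 and by -0.79 from NC1 to C2 after quantile normalisation, where the exact test's adjusted p missed 0.05 (0.0584 and 0.052), and C1 minus NC1 turned to 0.0666. When single arrays were left out, it lay between -1.17 and -0.79 from C1 to C2, between -1.19 and -0.82 from NC1 to C2, and between -0.15 and 0.06 for C1 minus NC1, where it was 0.0556 without NC1 replicate 4 and 0.0047, 0.0297 and 0.0328 without C1 replicates 3, 4 and 6. PSMB10 minus PSMB7 lay between -0.87 and -0.61 from C1 to C2 and between -1.18 and -0.91 from NC1 to C2. PSMB9 minus PSMB6 lay between 0.51 and 0.93 from C1 to C2 and between -0.53 and -0.35 for C1 minus NC1. With fewer arrays, the exact test allows fewer regroupings. The median change of the activators was -0.10 against C1 and -0.11 against NC1 after quantile normalisation and 0.35 against NC1 with normexp. With normexp, the medians for C1 minus NC1 were 0.70 for the constitutive beta ring, 0.57 for the ATPase ring, 0.46 for the non-ATPase subunits and 0.54 for the activators. For C2 minus C1, PSMA7 was -0.0011 with the mean of its probes, and PSMB5 and PSMB7 were -0.011 and -0.056 after quantile normalisation. The cause of these changes was not tested.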
